A study of Mus musculus with 4 samples.

Results

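Complement and coagulation factors, the plasma proteases, cofactors, receptors and inhibitors of 2 cascades, were followed in the livers of fasted mice with 1 altered copy of Cnot3 by their label. Members were all probe sets that the array platform's annotation pairs with exactly 1 gene symbol, where that symbol is on a list of 48 complement and coagulation genes. This gave 67 of 45101 probe sets, for 43 of the 18194 genes named in this way: 22 of complement and 21 of coagulation. The listed genes C1s, C3, C4b, Cfd and Cpb2 were not analysed here. The study profiled total liver RNA of 4 male C57BL/6J mice on 1-colour Affymetrix arrays, 2 wild-type and 2 labelled Cnot3+/-. All 4 animals were of the same age, 12 weeks, on normal chow, and were housed alone and deprived of food for 24 h. Each array is named by its labelled genotype and replicate number, as in Cnot3+/- 2. The CNOT3 protein belongs to CCR4-NOT, the main deadenylase complex of mRNA decay; the labels do not describe the altered allele further.

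Complement is activated through the classical pathway (C1q bound to antibody or other ligands), the lectin pathway (mannose-binding lectins with their proteases) or the alternative pathway, and all of them cleave C3 and then C5, which starts the membrane attack complex. Coagulation starts where tissue factor meets factor VII, is amplified by the intrinsic factors, and ends with thrombin cutting fibrinogen to fibrin; the protein C system limits it and plasmin dissolves the clot. Hepatocytes make most of these plasma proteins, while C1q and properdin come mainly from macrophages and other myeloid cells, and factor VIII, thrombomodulin and von Willebrand factor from endothelium. Several hepatocyte-made members are known acute phase genes that respond to interleukin 6.

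The promoters of 6 members are given first, because their values carry the results that follow: C1qb and C1qc for the members that followed a single array, Hc, C8b and Pros1 for those that stood higher on both Cnot3+/- arrays, and Fgb as the textbook interleukin 6 target of coagulation. Each line holds the 250 bases before the RefSeq gene start in assembly GRCm38.p6, read 5′ to 3′ on the gene's strand. Capitals mark matches to 8 short motifs searched on both strands, which are spelled out after the sequences. Of the 42 members tested, 31 had a promoter in the RefSeq table used here.
C1qb, chr4:136886201-136886450, minus strand: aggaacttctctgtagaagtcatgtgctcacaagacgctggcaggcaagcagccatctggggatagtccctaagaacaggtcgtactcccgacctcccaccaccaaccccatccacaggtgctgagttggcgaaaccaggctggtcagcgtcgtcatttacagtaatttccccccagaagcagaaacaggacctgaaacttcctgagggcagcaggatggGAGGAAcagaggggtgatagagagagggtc
C1qc, chr4:136892915-136893164, minus strand: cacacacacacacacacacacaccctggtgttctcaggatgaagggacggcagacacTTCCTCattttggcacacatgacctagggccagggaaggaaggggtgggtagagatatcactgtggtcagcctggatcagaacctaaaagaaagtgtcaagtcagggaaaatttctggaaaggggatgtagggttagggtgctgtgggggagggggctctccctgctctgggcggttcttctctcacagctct
Hc, chr2:35061413-35061662, minus strand: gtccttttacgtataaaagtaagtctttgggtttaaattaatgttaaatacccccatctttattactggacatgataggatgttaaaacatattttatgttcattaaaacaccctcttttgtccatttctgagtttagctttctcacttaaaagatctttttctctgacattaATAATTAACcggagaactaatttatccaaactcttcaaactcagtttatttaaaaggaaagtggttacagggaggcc
C8b, chr4:104766067-104766316, plus strand: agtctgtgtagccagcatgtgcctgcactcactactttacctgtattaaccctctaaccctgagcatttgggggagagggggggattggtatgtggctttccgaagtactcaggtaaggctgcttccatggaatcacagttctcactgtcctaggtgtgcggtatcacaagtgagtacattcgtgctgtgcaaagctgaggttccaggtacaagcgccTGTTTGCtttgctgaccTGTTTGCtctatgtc
Pros1, chr16:62854057-62854306, plus strand: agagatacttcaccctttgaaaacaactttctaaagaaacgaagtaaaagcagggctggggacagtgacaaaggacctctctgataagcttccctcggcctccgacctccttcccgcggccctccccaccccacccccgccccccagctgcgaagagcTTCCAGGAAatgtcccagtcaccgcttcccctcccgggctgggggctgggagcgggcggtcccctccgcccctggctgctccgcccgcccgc
Fgb, chr3:83049864-83050113, minus strand: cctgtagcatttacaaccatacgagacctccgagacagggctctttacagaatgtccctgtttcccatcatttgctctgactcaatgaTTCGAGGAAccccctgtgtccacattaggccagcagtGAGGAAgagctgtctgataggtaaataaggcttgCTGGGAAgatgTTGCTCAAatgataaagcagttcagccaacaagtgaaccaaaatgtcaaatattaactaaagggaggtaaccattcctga

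C1qb and C1qc each held a single GAGGAA, the core bound by Ets factors such as PU.1, which 23.3% of all 32851 promoter windows of this length also held. Hc held the HNF1 element GTTAATNAT, present in 0.737% of all windows; of the 33 windows of tested members 4 held it, those of Hc, C4bp, F13b and Fga. C8b held the forkhead core TGTTTGC at 2 places, a motif of 4.30% of windows. Pros1 held the STAT-type dyad TTCNNNGAA, found in 7.02% of windows. Fgb held this dyad as well, with the interleukin 6 element core CTGGGAA (9.10% of windows), the C/EBP-type dyad TTGCNNAA (9.56%) and GAGGAA at 2 places, of which 1 overlaps the STAT-type dyad. Of the member windows, 6 held the STAT-type dyad, 6 the C/EBP-type dyad and 5 the interleukin 6 element core. No member window held the interferon element repeat GAAANNGAA or the HNF4 element CAAAGTCCA, which 7.13% and 0.384% of all windows held. These are matches of letters within a fixed window, and binding was not measured.

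Of the 43 genes, 42 passed the filter on dim probe sets and were tested, each through 1 probe set; C5ar1, the receptor of the anaphylatoxin C5a, was too dim. No member passed the test, in which the adjusted p is limma's, by Benjamini-Hochberg over 13379 genes. The smallest adjusted p among members was 0.999, and 2 genes in all (0.0149%) passed at 0.05. At an unadjusted p under 0.05 there were 3 members, C2, Pros1 and C8b, all higher in Cnot3+/-, which is 3 of 42 where 3.59% of all genes tested reached it. In 36 of the 42 members the Cnot3+/- mean lay above the wild-type mean, against 47.9% of all genes. The median log2 difference, Cnot3+/- minus wild-type, was 0.17 over members and -0.01 over all genes. The groups did not overlap in 17 of 42 members, with both Cnot3+/- arrays above both wild-type arrays in 15 and below them in 2, where 31.5% of all genes did not overlap (14.1% higher and 17.4% lower).

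**Figure D1:**
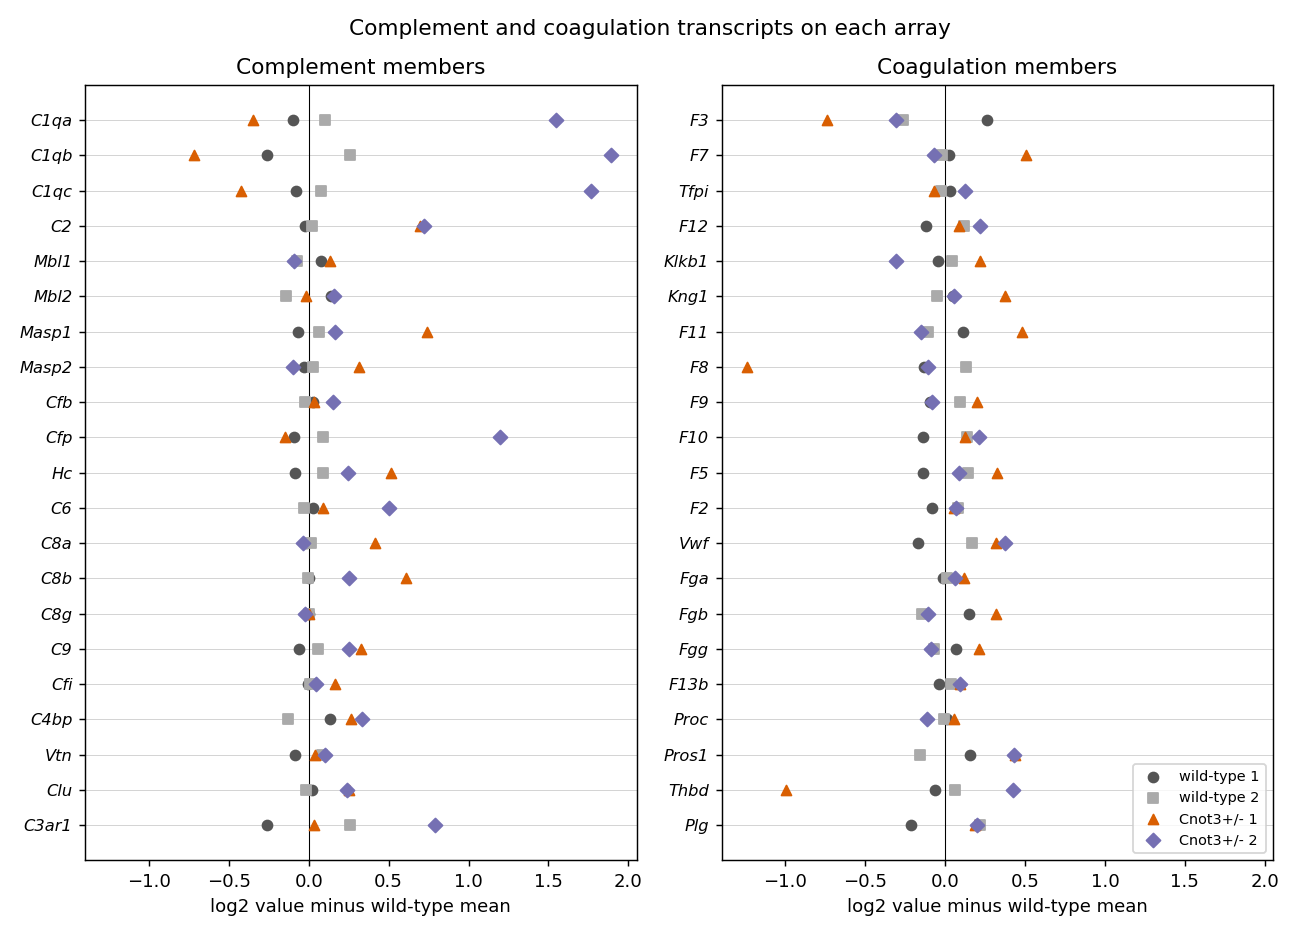
Each row is a tested member and each symbol an array; the horizontal axis is the log2 value minus the mean of the wild-type arrays. C1qa, C1qb, C1qc and Cfp stand to the right on Cnot3+/- 2 alone, F8, F3 and Thbd stand to the left on Cnot3+/- 1, and C2 has both Cnot3+/- arrays near 0.7.

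Facts of the whole series bear on these values. Wild-type arrays lay at least 2-fold apart in 74 genes and Cnot3+/- arrays in 432; as shares of the genes tested these are 0.553% and 3.23%, and among the 42 members the numbers were 0 and 6. No 2 arrays were copies of each other, and array medians lay between 4.62 and 4.66. Cnot3 itself differed by -0.03 (SE 0.25), so its level does not bear out the genotype labels, the array's probes need not lie in the altered part, and each direction here rests on the arrays as labelled. Hepatocyte markers were high on every array (9 of 9 tested, from 12.19 for Tat to 14.87 for Alb). The labels call the samples biological replicates, and 2 arrays per group limit the precision of every value.

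Complement members stood higher than wild-type in 20 of 21 cases. Their median log2 difference was 0.30, with 10 members higher and C8g lower without overlap between the groups (52.4% in all, against 31.5% of all genes). The median was 0.13 without Cnot3+/- 2, between 0.24 and 0.27 without any other array, and the 10 members became 17 without Cnot3+/- 1; with an array left out, 1 array is set against 2, and groups separate more easily. Of all genes tested, 31.8% were higher without overlap when Cnot3+/- 1 was left out, 30.1% without Cnot3+/- 2, 28.5% without wild-type 1 and 32.6% without wild-type 2. Coagulation members were higher in 16 of 21, with a median of 0.09. Without overlap, 5 were higher and 1 lower (28.6% in all, near the 31.5% of all genes). Their median was 0.19 without Cnot3+/- 2, 0.05 without wild-type 1 and 0.06 without Cnot3+/- 1, and their 5 higher members became 13 without Cnot3+/- 2, 11 without wild-type 2 and 9 without Cnot3+/- 1. The single lower member of complement became 4 without Cnot3+/- 1 and 5 without Cnot3+/- 2, and that of coagulation became 6 without Cnot3+/- 1 and 4 without Cnot3+/- 2 or wild-type 1. The shares of all genes that were lower without overlap were then 36.3% without Cnot3+/- 1, 33.8% without Cnot3+/- 2, 32.8% without wild-type 1 and 36.7% without wild-type 2. No test was made of the difference between the cascades.

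C2 encodes the protease of the classical and lectin C3 convertase, and it had the largest difference among the members. Its log2 values were 9.06 and 9.11 in wild-type 1 and 2, and 9.78 and 9.81 in Cnot3+/- 1 and 2. Both Cnot3+/- arrays lay well clear of both wild-type arrays, and the arrays of each genotype lay within 0.05 of each other. The difference was 0.71 (SE 0.13, n = 2 per group, 95% confidence interval 0.39 to 1.04; 1.64-fold), with a limma adjusted p = 0.999. It ran from 0.69 to 0.73 when any single array was left out. The gene's other probe sets differed by 0.65 and 0.55, again with no overlap between the groups.

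Cfb, which encodes the homologous protease of the alternative pathway, is the direct neighbour of C2 in the RefSeq gene order (GRCm38.p6). It stood at 11.68 and 11.63 in wild-type and at 11.69 and 11.81 in Cnot3+/-. The difference was 0.09 (SE 0.13, interval -0.24 to 0.43), so the groups did not overlap but lay closer together than for C2, and the difference between these genes was not tested.

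The other gene clusters among the members can be set beside this pair. C8b and C8a, neighbours that encode the beta and alpha chains of C8, differed by 0.43 and 0.19. The neighbours F7 and F10 differed by 0.22 and 0.17, and F11 and Klkb1 by 0.17 and -0.04. The C1q genes and the fibrinogen genes each form a cluster of 3, described with their pathways.

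On the probe sets used, the 3 chains of C1q, the recognition molecule of the classical pathway, were high on Cnot3+/- 2 alone. C1qa stood at 8.51 and 8.72 in wild-type, at 8.27 in Cnot3+/- 1 and at 10.16 in Cnot3+/- 2. C1qb stood at 8.52 and 9.04 in wild-type, at 8.06 in Cnot3+/- 1 and at 10.67 in Cnot3+/- 2. C1qc stood at 8.12 and 8.28 in wild-type, at 7.77 in Cnot3+/- 1 and at 9.96 in Cnot3+/- 2. For each chain the wild-type arrays lay between the Cnot3+/- arrays, so the groups overlapped and the Cnot3+/- arrays lay 1.90, 2.61 and 2.19 apart. The differences were 0.60 (SE 0.61) for C1qa, 0.59 (SE 0.84) for C1qb and 0.67 (SE 0.70) for C1qc. All of them turned negative without Cnot3+/- 2, at -0.35, -0.72 and -0.43, and reached 1.55, 1.89 and 1.77 without Cnot3+/- 1. C1qb had 2 further probe sets, both of the kind that can match several transcripts. On 1 of these, Cnot3+/- 1 lay between the wild-type arrays (8.22 against 8.26 and 7.98). On the other, the groups did not overlap, with 7.57 and 7.56 in wild-type against 7.81 and 8.74 in Cnot3+/-.

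Other members made by myeloid cells had the same highest array on the probe sets used. Cfp, the gene of properdin, which stabilises the alternative convertase, stood at 7.16 and 7.34 in wild-type, at 7.10 in Cnot3+/- 1 and at 8.45 in Cnot3+/- 2. Its difference was 0.52 (SE 0.44), and -0.15 without Cnot3+/- 2. A dimmer probe set of Cfp gave 5.97 and 5.87 in wild-type against 6.31 and 6.18 in Cnot3+/-, with no overlap. C3ar1, the receptor of the anaphylatoxin C3a, stood at 5.18 and 5.70 in wild-type and at 5.47 and 6.22 in Cnot3+/- (difference 0.41, SE 0.31).

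Kupffer cell markers moved with these genes. All 10 markers were tested and all were highest on Cnot3+/- 2. Their summed linear level was 3611 and 3999 on the wild-type arrays, 3309 on Cnot3+/- 1 and 12044 on Cnot3+/- 2, and Clec4f, a marker specific to these liver macrophages, stood at 8.99, 9.31, 8.74 and 10.37 in the same order. The part of these cells in the C1q, properdin and C3ar1 values was not tested. In RNA of whole liver, a change in the number of cells of a type and a change in RNA per cell cannot be told apart.

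**Figure D2:**
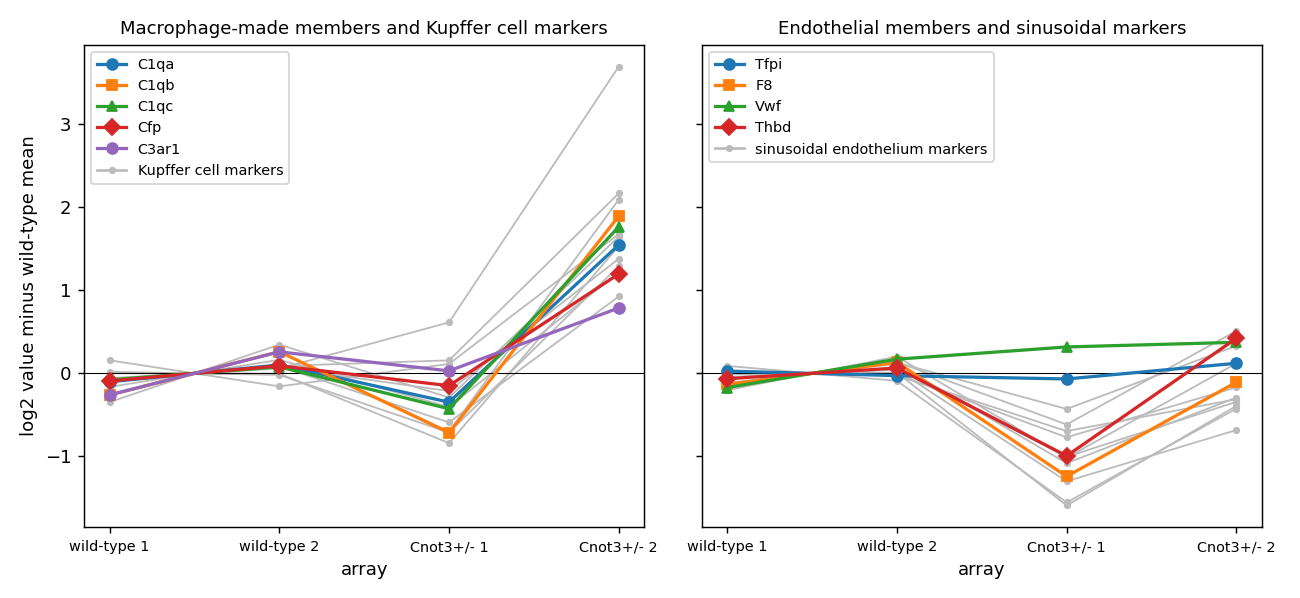
The vertical axis is the log2 value minus the wild-type mean on each of the 4 arrays (horizontal axis), with lines joining the values of a gene only to guide the eye. On the left, 5 members made by macrophages and other myeloid cells (coloured) are set over 10 Kupffer cell markers (grey), and all of these genes are highest on Cnot3+/- 2. On the right, 4 members made by endothelium are set over 10 sinusoidal endothelial markers, all of which are lowest on Cnot3+/- 1, as are F8, Thbd and, by a small margin, the probe set used for Tfpi.

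Of the 4 members made by endothelium, F8 and Thbd were low on Cnot3+/- 1, while Tfpi depended on the probe set and Vwf was not low there. F8, the gene of factor VIII, the cofactor whose loss causes haemophilia A, stood at 7.08 and 7.34 in wild-type, at 5.97 in Cnot3+/- 1 and at 7.10 in Cnot3+/- 2. Its difference of -0.67 (SE 0.38, interval -1.65 to 0.30) was the lowest among the members, and it was -1.24 without Cnot3+/- 2 and -0.11 without Cnot3+/- 1. Cnot3+/- 2 lay between the wild-type arrays, and after quantile normalization both Cnot3+/- arrays lay below wild-type. Thbd, the gene of thrombomodulin, which turns thrombin towards protein C, stood at 5.47 and 5.60 in wild-type, at 4.54 in Cnot3+/- 1 and at 5.95 in Cnot3+/- 2. Its difference was -0.29 (SE 0.46), and 0.42 without Cnot3+/- 1.

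Tfpi, the gene of the inhibitor of tissue factor, depended on the probe set. The probe set used stood between 5.46 and 5.65 on all arrays and differed by 0.03 (SE 0.14). The other 3 differed by -0.46, -0.63 and -0.42, each with its lowest value on Cnot3+/- 1, and with the probe sets averaged Tfpi differed by -0.37. Vwf, the gene of von Willebrand factor, was dim, at 4.62 and 4.96 in wild-type against 5.11 and 5.16 in Cnot3+/- (difference 0.35, SE 0.17), with no overlap between the groups.

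All 10 sinusoidal endothelial markers were tested and lowest on Cnot3+/- 1. In 7 of them both Cnot3+/- arrays lay below both wild-type arrays, where 17.4% of all genes tested did. F8 and Thbd did not share this on Cnot3+/- 2, where F8 lay between the wild-type arrays (7.10) and Thbd was highest (5.95). The summed linear level of the 10 markers was 2838 and 2966 on the wild-type arrays, 1315 on Cnot3+/- 1 and 2349 on Cnot3+/- 2. Stab2, a scavenger receptor gene that marks these cells, stood at 8.37 and 8.34 in wild-type and at 7.59 and 8.19 in Cnot3+/-. The part of these cells in the F8, Thbd and Tfpi values was not tested.

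F3, the gene of tissue factor, which starts coagulation, was near the lower limit of the genes tested. It stood at 4.79 and 4.27 in wild-type and at 3.79 and 4.22 in Cnot3+/-, where its mean of 4.01 lay below the filter value of 4.06. Both Cnot3+/- arrays lay below wild-type, Cnot3+/- 2 by a small margin. The difference was -0.52 (SE 0.25, limma adjusted p = 0.999), and -0.26 without wild-type 1.

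Members made by hepatocytes had a different order of arrays. Of 32 such members, 21 were highest on Cnot3+/- 1, 8 on Cnot3+/- 2 and 3 on a wild-type array, where 22.8% of all genes were highest on Cnot3+/- 1. None of the 32 was lowest on Cnot3+/- 1. Their median differed from the wild-type mean by 0.21 on Cnot3+/- 1 and 0.09 on Cnot3+/- 2. The hepatocyte markers were also highest on Cnot3+/- 1, in 6 of 9 cases, with a summed linear level of 137213 and 138809 on the wild-type arrays, 145678 on Cnot3+/- 1 and 141544 on Cnot3+/- 2. Their part in these values was not tested. The assignment of members to cells is background knowledge and was made with the values known.

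In the terminal pathway, whose proteins form the membrane attack complex, 5 of 6 members stood higher. C8b stood at 10.69 and 10.68 in wild-type and at 11.29 and 10.94 in Cnot3+/- 1 and 2. Both Cnot3+/- arrays lay above the closely matched wild-type arrays, and the difference was 0.43 (SE 0.17, interval 0.01 to 0.86, limma adjusted p = 0.999). It was 0.26 without Cnot3+/- 1 and 0.61 without Cnot3+/- 2. Hc, the mouse gene of C5, stood at 12.14 and 12.31 in wild-type and at 12.74 and 12.47 in Cnot3+/- (difference 0.38, SE 0.16). C9, which forms the pore of the complex, stood at 12.66 and 12.78 in wild-type and at 13.04 and 12.97 in Cnot3+/- (difference 0.29, SE 0.13). C6 differed by 0.30 (SE 0.18) and its groups did not overlap, but it was highest on Cnot3+/- 2, at 11.22 against 10.80 on Cnot3+/- 1.

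The genes of the other C8 chains had smaller differences than C8b, and the difference between the chains was not tested. C8a stood at 12.30 and 12.33 in wild-type, at 12.73 in Cnot3+/- 1 and at 12.28 in Cnot3+/- 2, so its groups overlapped. C8g, the gene of the gamma chain, ran from 12.63 to 12.66 over all 4 arrays and differed by -0.01 (SE 0.13, interval -0.34 to 0.31). Its groups were separated in the deposited values and overlapped after quantile normalization.

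In the lectin pathway the recognition genes lay near wild-type. Mbl1 and Mbl2, which encode mannose-binding lectins, differed by 0.02 (SE 0.15) and 0.07 (SE 0.16), with overlapping groups. Masp1, a protease that associates with them, stood at 9.41 and 9.54 in wild-type and at 10.22 and 9.64 in Cnot3+/-, a difference of 0.45 (SE 0.22) that was 0.16 without Cnot3+/- 1. Its 4 dimmer probe sets differed by 0.18, 0.14, -0.08 and -0.07, each with overlapping groups, and 3 of them were lowest on Cnot3+/- 1 where the brightest was highest. Masp1 gives rise to several transcripts, and which of them each probe set reads was not examined here. Masp2, the protease that cleaves C4 and C2, differed by 0.11 (SE 0.18) and by 0.28 on its other probe set.

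Complement regulators stood slightly higher, all 4 with a difference above 0. C4bp, a cofactor for the breakdown of C4b, stood at 12.07 and 11.80 in wild-type and at 12.20 and 12.27 in Cnot3+/- (difference 0.30, SE 0.15). Clu, the gene of clusterin, which blocks assembly of the attack complex, stood at 12.91 and 12.88 in wild-type and at 13.15 and 13.13 in Cnot3+/- (difference 0.25, SE 0.13). All 4 Clu probe sets were higher, by 0.15 to 0.25, and 2 of them had no overlap. Cfi, the protease that inactivates C3b, differed by 0.10 (SE 0.13), and Vtn, the gene of vitronectin, by 0.07 (SE 0.14).

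**Figure D3:**
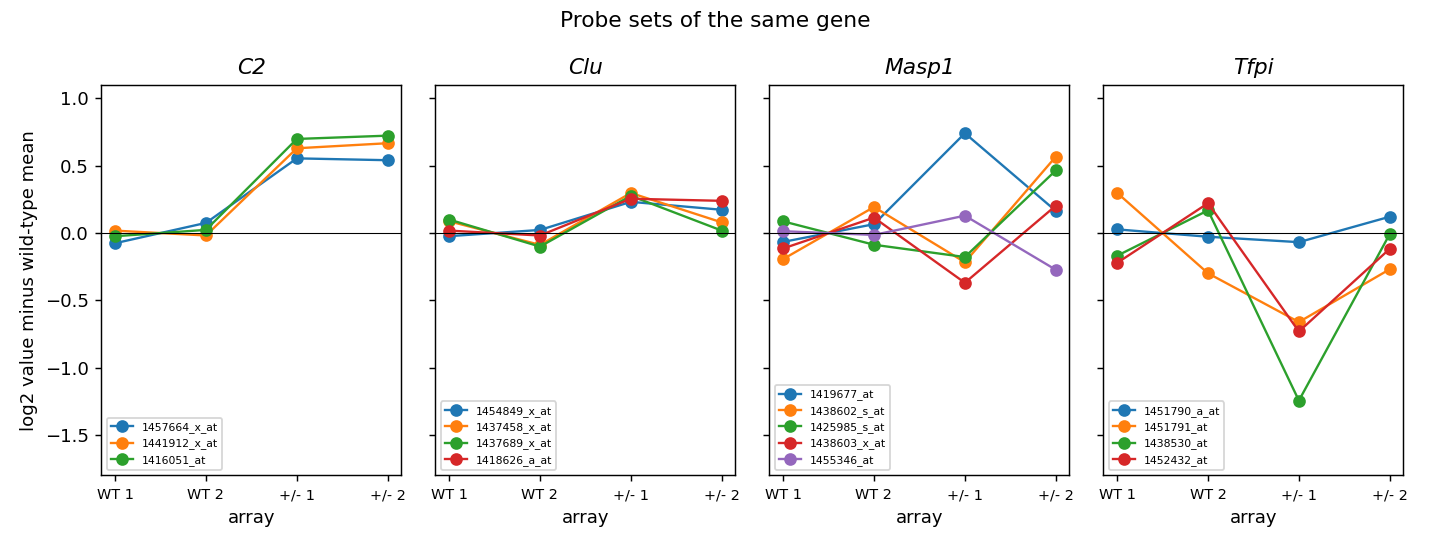
Each panel shows the tested probe sets of 1 gene; the vertical axis is the log2 value minus that probe set's wild-type mean, over the 4 arrays on the horizontal axis (WT, wild-type; +/-, Cnot3+/-). The C2 probe sets stand together on both Cnot3+/- arrays, the Clu probe sets are all above 0 there, and the probe sets of Masp1 and Tfpi part on Cnot3+/- 1.

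Several probe sets were tested for 12 members, and in 10 of these all of them had the same direction. Masp1 and Tfpi were the exceptions. Over the 23102 probe sets tested by themselves, no probe set of a member passed (limma adjusted p = 1), where 0.00866% of probe sets did.

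Among coagulation members, Pros1 had the largest difference upward. It encodes protein S, the cofactor of activated protein C, and stood at 8.48 and 8.16 in wild-type and at 8.76 and 8.75 in Cnot3+/-. The Cnot3+/- arrays lay above wild-type and within 0.01 of each other. The difference was 0.43 (SE 0.16, interval 0.03 to 0.84, limma adjusted p = 0.999), and it was 0.28 without wild-type 2 and 0.59 without wild-type 1. Proc, which encodes protein C itself, ran from 12.17 to 12.34 and differed by -0.03 (SE 0.14). Plg, the gene of plasminogen, stood at 13.19 and 13.62 in wild-type and at 13.59 and 13.60 in Cnot3+/-, so that wild-type 1 alone was low (difference 0.19, SE 0.18).

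The fibrinogen genes, acute phase genes that lie side by side, stayed close to wild-type. Fga stood at 13.76 and 13.79 in wild-type and at 13.90 and 13.83 in Cnot3+/- (difference 0.09, SE 0.13, interval -0.24 to 0.42). Fgb stood at 13.65 and 13.35 in wild-type and at 13.82 and 13.39 in Cnot3+/- (difference 0.10, SE 0.20, interval -0.41 to 0.62). Fgg stood at 13.90 and 13.76 in wild-type and at 14.04 and 13.74 in Cnot3+/- (difference 0.06, SE 0.16, interval -0.36 to 0.48). Fgb and Fgg were both higher on wild-type 1 and Cnot3+/- 1 than on the other arrays. For Fgb and Fgg the spread within each genotype was larger than the difference between the genotypes. For Fga it was smaller, and the Fga groups did not overlap. The intervals of all 3 leave out a 2-fold difference in either direction, and values this bright can be compressed on arrays. F13b, the carrier subunit of the factor that cross-links fibrin, differed by 0.09 (SE 0.13).

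**Figure D4:**
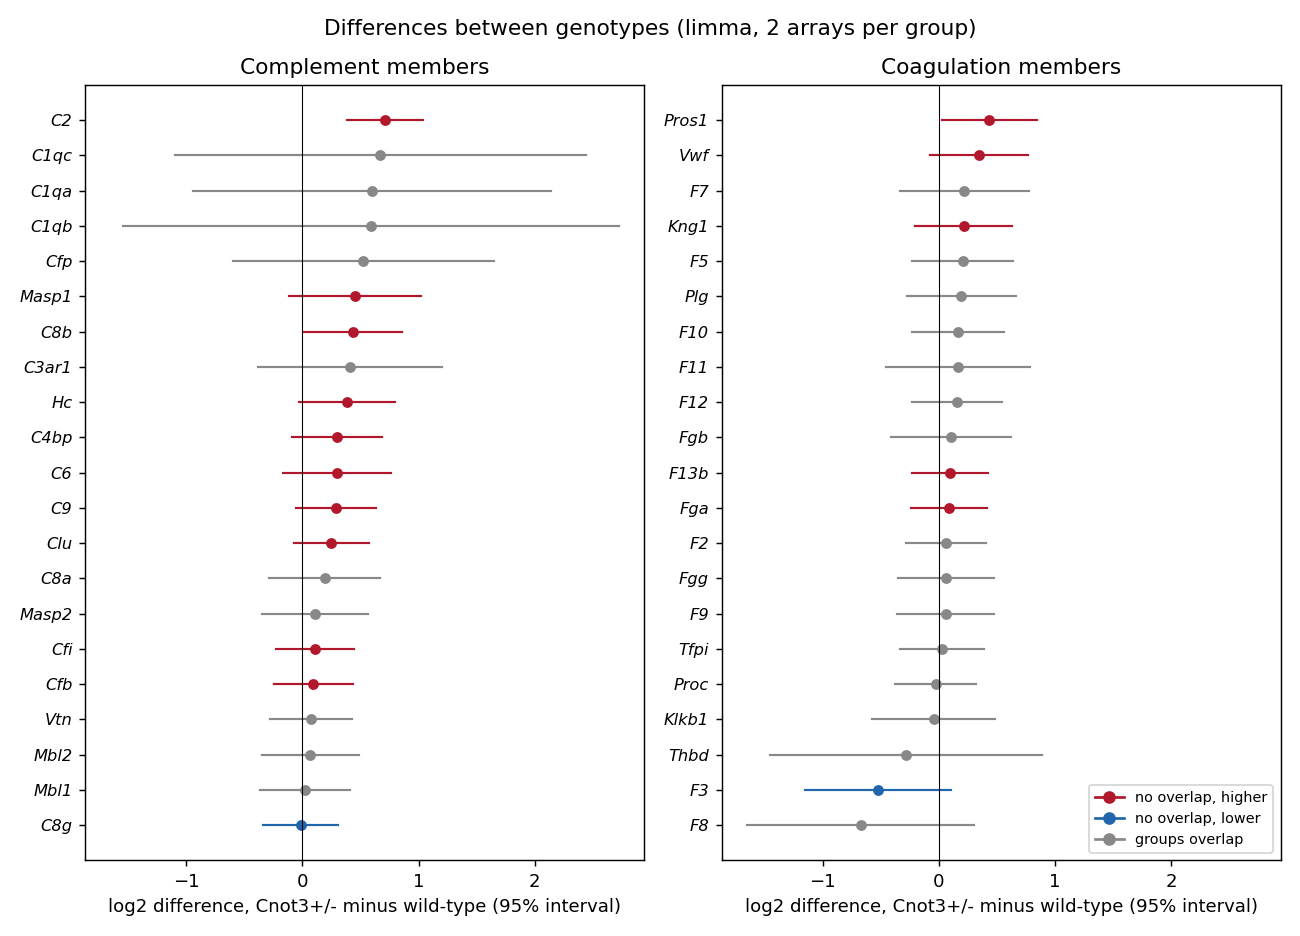
Points are log2 differences, Cnot3+/- minus wild-type, and bars their 95% confidence intervals from limma, ordered by size within complement and coagulation; colours show whether the groups overlap. The intervals of C2, C8b and Pros1 lie above 0 before adjustment, and those of C1qa, C1qb, C1qc, Cfp and Thbd are the widest.

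Of the vitamin K-dependent proteases and their cofactor, none had groups without overlap on the probe set used. F2, the gene of prothrombin, ran from 13.11 to 13.27 and differed by 0.06 (SE 0.14, interval -0.29 to 0.41). F7, F9 and F10 differed by 0.22 (SE 0.22), 0.06 (SE 0.16) and 0.17 (SE 0.16), and F5, the cofactor of factor X, by 0.21 (SE 0.17). The other probe sets of F10, both dimmer, differed by 0.36 with overlapping groups and by 0.26 with both Cnot3+/- arrays above wild-type, and that of F5 differed by 0.14. F7 was high on Cnot3+/- 1 alone, at 10.61 against 10.04 to 10.13 on the other arrays.

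In the contact system, which links surface contact to kinin release, F11 and Klkb1 were highest on Cnot3+/- 1, and on Cnot3+/- 2 they were lowest. F11, the factor XI gene, stood at 8.87 on Cnot3+/- 1 and 8.24 on Cnot3+/- 2, against 8.50 and 8.28 in wild-type. Klkb1, its neighbour, which encodes plasma prekallikrein, stood at 10.86 and 10.33 against 10.60 and 10.69. Their differences were 0.17 (SE 0.24) and -0.04 (SE 0.21). Kng1, the kininogen gene, stood at 13.13 and 13.04 in wild-type and at 13.46 and 13.14 in Cnot3+/-, a difference of 0.21 (SE 0.16) without overlap, and it differed by 0.06 on its other probe set. F12, the factor XII gene, stood at 11.38 and 11.61 in wild-type and was highest on Cnot3+/- 2, at 11.72 against 11.58 on Cnot3+/- 1 (difference 0.15, SE 0.15).

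Further genes of the cascades were taken from lists, and none passed the test (the smallest limma adjusted p in any of these lists was 0.999). Of 13 further complement components and regulators, 5 stood above wild-type and 8 below it (median difference -0.13). The groups did not overlap in 30.8% of them, near the 31.5% of all genes tested. Higher were Serping1, the C1 inhibitor gene, at 0.30 (SE 0.13) and C1ra, the gene of a protease of the C1 complex, at 0.27 (SE 0.17). Lower were C1qbp at -0.28 (SE 0.13) and Cd59a, which protects cells from the attack complex, at -0.24 (SE 0.14). The C1ra groups all but touched, at 10.4299 on wild-type 2 and 10.4307 on Cnot3+/- 1. Of 15 inhibitors and fibrinolysis genes, 10 were higher and 5 lower (median 0.05). Procr, counted as higher, had a wild-type mean of 3.74, below the filter value of 4.06, and passed the filter through 5.37 on Cnot3+/- 2. The groups did not overlap in 33.3% of these, again near the share of all genes. Serpina10, the gene of the protein Z-dependent inhibitor of factor Xa, stood at 11.33 and 11.19 in wild-type against 11.72 and 11.76 in Cnot3+/- (difference 0.48, SE 0.13). Proz, the gene of its partner protein Z, differed by 0.25 (SE 0.16) and Tfpi2 by -0.32 (SE 0.15), neither with overlap. Plat, the gene of tissue plasminogen activator, differed by -0.20 (SE 0.14) without overlap. Plat was near the lower limit of the genes tested, and its Cnot3+/- mean of 4.05 lay below the filter value of 4.06.

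Genes of gamma-carboxylation and of factor secretion were lower in 6 of 9 cases, with a median of -0.06. Of all genes tested, 6976 of 13379 were lower. The groups did not overlap in 33.3% of this list, near the 31.5% of all genes. Ggcx, the carboxylase, differed by -0.22 (SE 0.13), Vkorc1, the vitamin K reductase and target of warfarin, by -0.15 (SE 0.14), and Mcfd2, a cargo receptor for factors V and VIII, by -0.17 (SE 0.14), each without overlap. All 3 thrombin receptor and platelet glycoprotein genes tested were lower, with overlapping groups (F2r at -0.17, SE 0.23, and Gp5 at -0.14, SE 0.15). Markers of other cells were also read. Of 7 platelet markers 5 were higher, with a summed linear level of 288 and 296 in wild-type against 319 and 312 in Cnot3+/-. Ppbp, counted as higher, had a wild-type mean of 4.02, below the filter value of 4.06. Of 8 neutrophil markers 5 were higher (249 and 241 against 250 and 349). S100a8, counted as higher, had a wild-type mean of 4.059, below the filter value of 4.064. Camp, counted as lower, had a Cnot3+/- mean of 4.052, also below it. Of 5 adipocyte markers 1 was higher (7677 and 9215 against 9979 and 9172). Adipoq and Lep were too dim to test, and Pck1, which hepatocytes also express, was the brightest gene of that list. Of 7 stellate cell markers 2 were higher (3616 and 3855 against 2638 and 4877).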

How the data were processed

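Labelled cRNA of 4 livers was measured on Affymetrix arrays. The authors deposited log2 values, and the submitters' processing notes name RMA as their tool. RMA subtracts background, brings arrays to a common distribution and combines the probes of a set, which shrinks differences of dim probe sets; its version was not given in the sources used here. Values ran from 1.85 to 14.96, which fits a log2 scale. All columns were mapped to samples.

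Symbols came from the platform annotation, which can be old (34958 probe sets with 1 symbol, 932 with several, 9211 with none). Probe sets in the lowest 40% of mean value (below 4.06) were left out, and each gene was read through its brightest probe set, with _x_at and _s_at kinds used only where there was no other. The fit was limma 3.58.1 (R 4.3.3) over all 4 arrays, two-sided, no covariate, threshold 0.05, 2 residual and 3.17 prior degrees of freedom. In a simulation of this comparison on 13379 genes, 18% of genes changed by 1 and 90% of those changed by 2 (log2) were recovered, with 4 false calls. It also held genes changed by 3 and 4, and gave both genotypes the same spread within a gene, drawn from limma's prior. The real Cnot3+/- arrays lay at least 2-fold apart in 432 genes and the wild-type arrays in 74, so these shares can overstate recovery in the real data.

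Members described in full had no overlap and a difference of at least 0.4, or arrays of a genotype at least 1 apart; from each list, up to 4 genes without overlap, or the 2 largest. Members and lists were chosen with earlier results of these data known. Motifs and members with a printed promoter were chosen after the values were seen. Promoters are from RefSeq. Alternatives varied the filter, probe sets, normalization, moderation, replicate block and arrays.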

Additional observations from a re-analysis of the deposited data

How the results depend on the processing

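No member passed under any alternative tried, and the smallest adjusted p of a member was 0.0592, without Cnot3+/- 1. Of 219 recomputed values, 195 kept their direction and their side of the threshold or stayed within the limits set for counts and medians. Many of these could not have moved. Changing the moderation or adding the replicate block alters only standard errors and p-values, so differences, medians and overlap counts stay the same by construction. The number of genes passing was 2, and 0 to 38 with an array left out (38 without Cnot3+/- 1, 0 without either wild-type array). With the replicate block it was 0, and no member passed. The labels share only replicate numbers, and deviations of same-numbered arrays correlated at 0.16 across genes. With an array left out, complement members without overlap numbered 11 to 17 higher and 1 to 5 lower, and coagulation members 6 to 13 higher and 1 to 6 lower. Of all genes tested, 28.5% to 32.6% were then higher and 32.8% to 36.7% lower without overlap. The medians of complement and coagulation members ran from 0.13 to 0.27 and from 0.054 to 0.19. Lower coagulation members numbered 0 with 60% of probe sets filtered out, since F3 was no longer tested, and 2 with probe sets averaged or after quantile normalization; lower complement members numbered 0 after quantile normalization. Without Cnot3+/- 2, C1qa turned to -0.35, C1qb to -0.72, C1qc to -0.43 and Cfp to -0.15 (1.55, 1.89, 1.77 and 1.198 without Cnot3+/- 1). Thbd turned to 0.42 without Cnot3+/- 1 and was -0.995 without Cnot3+/- 2. All 42 members kept their sign after quantile normalization, 41 with probe sets averaged (Tfpi turned), and 22 without each array in turn. Array brightness near background limits F3, Vwf, Thbd, Tfpi and C3ar1. It also limits Plat and Procr among the further genes and Ppbp, S100a8 and Camp among the markers, and no detection calls were used.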

Other observations

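Transcription factors and cytokine receptors that govern plasma protein genes in hepatocytes had values on both sides of wild-type, 10 of 15 higher and 5 lower, with a median log2 difference of 0.05 and no gene past the limma threshold (smallest adjusted p = 0.999). The groups did not overlap in 33.3% of these genes, near the 31.5% of all genes tested. Il1r1, the interleukin 1 receptor gene, was higher without overlap, at 0.65 (SE 0.21). Socs3, the feedback inhibitor of the interleukin 6 pathway, was higher at 0.64 (SE 0.29). Its groups lay close, with 6.61 on wild-type 2 and 6.66 on Cnot3+/- 1. Stat3, the transcription factor of that pathway, was higher without overlap, at 0.61 (SE 0.18). Stat3 stood at 8.88 and 9.29 in wild-type and at 9.71 and 9.68 in Cnot3+/-. Foxa2, a forkhead factor of liver, was lower at -0.60 (SE 0.14), with 9.10 and 9.27 in wild-type against 8.59 on both Cnot3+/- arrays. These Cnot3+/- values were exactly tied, as for 372 probe sets between the Cnot3+/- arrays, so the tie is no measure of their spread. Nr1h4 was also lower without overlap, at -0.35 (SE 0.19). The interleukin 6 receptor genes Il6ra and Il6st differed by 0.57 (SE 0.35) and 0.02 (SE 0.17), with overlapping groups.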
